A study of Mus musculus with 16 samples.

Results

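The 10 genes described here encode receptors of the interleukin 6 (IL6) family (*Il6st*, *Osmr*, *Lifr* and *Cntfr*), the kinase and transcription factor that act below them (*Jak1* and *Stat3*), and genes known to be induced through *Stat3* or raised in reactive glia (*Socs3*, *Cebpd*, *Serpina3n* and *Cd44*). They were taken by symbol from a table of 30386 genes. The genes were chosen by their role in the pathway and on their CPM in *Dbx2*-NSPCs against *GFP*-NSPCs, with results of that comparison known. The members' differences in that comparison, and the change in these differences between sets of samples, are therefore given as a description, without a p. Where members are counted as past a threshold in it, this describes the fit and is no test of the members. Members' differences between sets of samples within a group come from the same samples and share this limit. They too are given without a p, and their calls describe the fit only.

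RNA came from 16 cultures of neural stem/progenitor cells (NSPCs) derived from the subventricular zone, a germinal niche of the adult brain, of mice of 3 months of age. The 8 GFP_CTR samples (*GFP*-NSPCs) carried a transgene for green fluorescent protein and the 8 Dbx2_constitutive samples (*Dbx2*-NSPCs) a transgene for *Dbx2*, a homeobox transcription factor. According to the methods, both kinds of line were made by nucleofection of the plasmid and selection with puromycin, were kept as bulk cultures, and were grown as non-adherent cultures with EGF and FGF2, so all samples share the selection and the growth factors. There were 2 independent pairs of a *Dbx2* and a *GFP* line, and each pair was sampled in 4 independent experiments. The labels number the samples of each group from 1 to 8 but do not give the cell line, so numbers 1 to 4 and numbers 5 to 8 are compared below as sets of numbers, and whether these sets are the pairs of lines is not given in the labels. Differences between the sets and between lines therefore cannot be told apart here.

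The cytokines of the IL6 family bind receptor complexes that share *Il6st* (gp130). These complexes activate Janus kinases, which phosphorylate *Stat3*, and *Stat3* then turns on target genes, among them its own inhibitor *Socs3*. In the adult brain the pathway is known for its part in astrocyte differentiation and in the reactive state that glia enter after injury or inflammation, in which *Serpina3n*, *Cd44* and *Gfap* are widely used markers.

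Levels are given as CPM, the reads of a gene scaled to the total of its sample, from a kit that reads the 3′ end of transcripts. Samples held 1803928 to 3293285 reads. A single read thus equals 0.303 to 0.554 CPM, and the floor used below, 3 reads, equals 0.911 to 1.66 CPM (counting error only). Of the 12533 genes that exceeded 1 CPM in 4 samples or more, 1982 (15.8%) differed between *Dbx2*-NSPCs and *GFP*-NSPCs with a limma adjusted p under 0.05. The targeted gene *Dbx2* was at 30.7 to 171 CPM in *GFP*-NSPCs and at 114 to 232 CPM in *Dbx2*-NSPCs. The overlap came from *GFP*-NSPC replicates 1 and 3 (171 and 116 CPM). Its log2 fold change was 1.26 over all samples (limma adjusted p = 0.00978). In numbers 1 to 4 it was 0.54 and not past the threshold (adjusted p = 0.0891). In numbers 5 to 8 it was 1.99 (adjusted p = 5.67e-08), and the values of the 2 sets differed (1.45, limma adjusted p = 1.04e-04). All 10 markers of neural stem and progenitor cells passed the filter, with a summed level of 6016 to 7460 CPM in *GFP*-NSPCs and 4854 to 6278 CPM in *Dbx2*-NSPCs. The 9 markers of microglia and macrophages summed to 0 to 2.45 CPM and 0 to 2.89 CPM, with *Aif1* and *Tyrobp* at 0 in all 16 samples, and the 6 of pericytes and fibroblasts to 0 to 1.64 CPM and 0.45 to 3.73 CPM. Endothelial markers summed to 0.67 to 11.65 CPM and 4.81 to 19.57 CPM, with *Cldn5* and *Cdh5* at 0 throughout, and ependymal markers to 9.66 to 24.2 CPM and 16.1 to 37.6 CPM, with *Pifo* and *Tmem212* at 0.

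*Serpina3n* was the member that set the groups apart. It encodes a secreted serine protease inhibitor (ENSMUSG00000021091, GRCm38 chromosome 12, 104406729 to 104414329, plus strand). In *GFP*-NSPCs it was at 0 CPM in 7 samples and at 0.55 CPM, a single read, in replicate 5. In *Dbx2*-NSPC replicates 1 to 8 it was, in that order, at 15.1, 19.7, 20.2, 9.33, 24.3, 12.1, 9.03 and 11.5 CPM. It was the only member whose groups did not overlap over all 16 samples, which held for 428 (3.41%) of the genes tested. Only the 8 *Dbx2*-NSPC samples were above 1 CPM, so *Serpina3n* passed the filter on low values through that group alone. Its place among the tested genes, its calls below and the intervals given here are therefore a description. Over the libraries, 1 read in *GFP*-NSPCs stood against 362 reads in *Dbx2*-NSPCs, a ratio of 336 with a 95% exact interval from 59.9 to 13310 for counting error. In numbers 1 to 4 there were 0 reads against 200, and the level was at least 15.2-fold higher than the floor of 3 reads per library. The other set had 1 read against 162, a ratio of 150 (26.6 to 5973). The mean level in *Dbx2*-NSPCs was 16.1 ± 5.06 CPM (SD, n = 4) in the former set and 14.2 ± 6.84 CPM (SD, n = 4) in the latter. In bulk samples, more cells that express a gene and more RNA per cell cannot be told apart, here and below.

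The plot of both genes sets the level of *Serpina3n* beside that of *Dbx2*. In numbers 5 to 8, *GFP*-NSPCs held 30.7 to 39.5 CPM of *Dbx2* and *Dbx2*-NSPCs 114 to 155 CPM, so that both genes were low in the one group and high in the other. In numbers 1 to 4 the levels of *Dbx2* overlapped, and *GFP*-NSPC replicate 1 held 171 CPM of *Dbx2*, more than 7 of the 8 *Dbx2*-NSPC samples, and no read of *Serpina3n*. The table gives 1 value per gene, and reads of the *Dbx2* transgene and of the endogenous gene cannot be told apart in it.

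**Figure D1:**
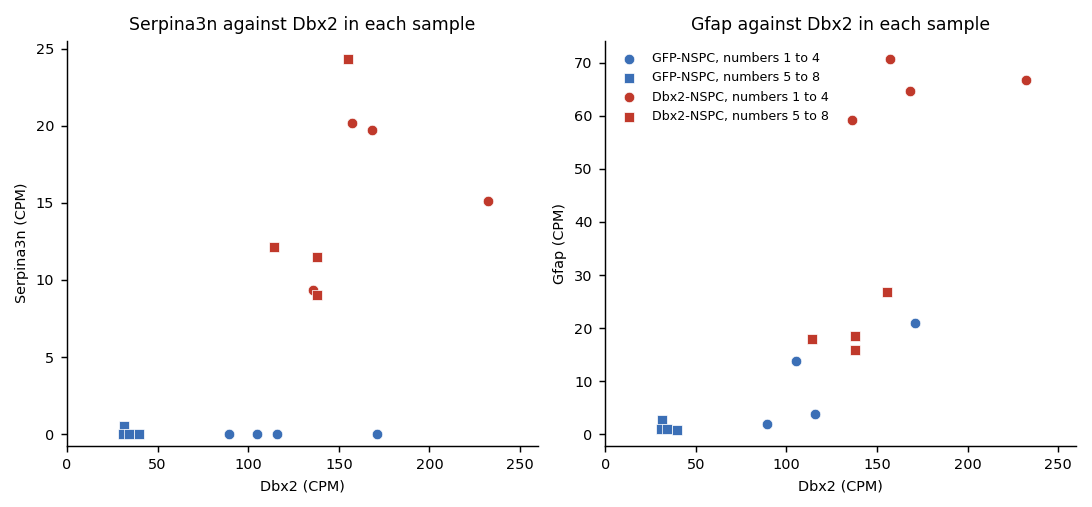
*Serpina3n* (left) and *Gfap* (right) against *Dbx2*, all in CPM, with a point for each of the 16 samples, blue for *GFP*-NSPCs and red for *Dbx2*-NSPCs, circles for numbers 1 to 4 and squares for numbers 5 to 8. *Serpina3n* lies at 0 to 0.55 CPM in *GFP*-NSPCs, also at 171 CPM of *Dbx2*, while *Gfap* reaches 20.95 CPM in that *GFP*-NSPC sample.

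*Serpina3n* is 1 of a cluster of closely related genes, among which reads can be hard to place. Of 9 other *Serpina3* genes in the table, 7 were at 0 in all samples. *Serpina3k* was at 0 in 12 samples and reached 32.4 CPM in *Dbx2*-NSPC replicate 1, 8.70 CPM in *Dbx2*-NSPC replicate 6, 7.40 CPM in *GFP*-NSPC replicate 8 and 1.52 CPM in *Dbx2*-NSPC replicate 2. *Serpina3k* did not pass the test over all samples (log2 fold change 1.03, limma adjusted p = 0.462). The genes most like *Serpina3n* over the 16 samples were *Nfasc* (Pearson r of the log2 levels 0.978), *Gm973* (0.957), *Gnao1* (0.953), *Zbtb7c* (0.949) and *Mxra7* (0.948), among 8651 tested genes that averaged 10 CPM or more. Samples of a group share their transgene in this measure, so genes that differ between the groups score high by it.

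The 250 bases before the RefSeq start of *Serpina3n* are shown because this gene carried the clearest difference. They lie at chr12:104406458-104406707 of GRCm38.p6, on the plus strand, with 46.4% G and C, and no capitals appear because neither motif searched was found in them.
Serpina3n: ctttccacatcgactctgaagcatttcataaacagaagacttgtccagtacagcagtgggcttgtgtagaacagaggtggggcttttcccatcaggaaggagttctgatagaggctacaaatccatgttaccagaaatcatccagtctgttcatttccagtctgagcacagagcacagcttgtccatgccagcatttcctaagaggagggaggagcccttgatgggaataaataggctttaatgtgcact
The motifs were TTCNNNGAA, the palindrome known for STAT factors, and TAATTA, a palindrome known for homeodomain factors, so both strands read the same. RefSeq start windows were found for 9 of the 10 members, 15 windows in all, and not for *Cebpd*. TTCNNNGAA occurred in 1 of these members, *Socs3*, and in 7.02% of the 32851 windows of the same length in the reference (8.13% of 27025 genes). TAATTA occurred in none of the members' windows and in 4.84% of the windows in the reference. The *Socs3* match starts 154 bases before the RefSeq start and is shown in capitals with 10 bases on each side, at chr11:117969502-117969530 on the minus strand.
Socs3: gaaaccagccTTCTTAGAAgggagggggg
A match of letters is a description and no measure of binding.

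The 4 receptors differed from each other in their patterns. *Il6st*, the shared signalling subunit (ENSMUSG00000021756, chromosome 13, 112464070 to 112510086, plus strand), was at 40.3, 43.7, 46.6, 47.65, 36.0, 44.8, 38.25 and 43.2 CPM in *GFP*-NSPC replicates 1 to 8. In *Dbx2*-NSPC replicates 1 to 8 it was at 64.2, 70.1, 68.7, 51.3, 68.6, 57.15, 38.4 and 54.7 CPM. The *Dbx2*-NSPC sample was the higher in 8 of 8 numbers, as for 6.88% of the genes tested, and 7 of 8 *Dbx2*-NSPC samples lay above the highest *GFP*-NSPC sample, the exception being replicate 7. The log2 fold change was 0.45 (SE 0.117) over all samples, and 0.50 and 0.40 within the former and the latter set of numbers.

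*Osmr*, the receptor subunit for oncostatin M (ENSMUSG00000022146, chromosome 15, 6813577 to 6874969, minus strand), was close to the floor. It was at 0.81, 0, 0.33, 0.33, 0.55, 0, 0 and 0 CPM in *GFP*-NSPC replicates 1 to 8, and at 2.89, 2.73, 5.21, 3.23, 0.70, 0.62, 0 and 0.68 CPM in those of *Dbx2*-NSPCs. Only *Dbx2*-NSPC samples 1 to 4 were above 1 CPM, and *Osmr* passed the filter on low values through these 4 samples alone. In numbers 1 to 4 there were 4 reads against 43, a ratio of 9.98 (95% exact interval 3.63 to 38.3, counting error only). The other set had 1 read against 6, a ratio of 5.57 (0.675 to 256), so no difference was detectable at this depth. *Osmr* entered the table of tested genes only because *Dbx2*-NSPC samples 1 to 4 were high. No test of these samples against the other *Dbx2*-NSPC samples is therefore given. Its calls against *GFP*-NSPCs, counted below, were favoured by that filter. They are a description, as is the interval for numbers 1 to 4.

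*Lifr*, the receptor subunit for leukemia inhibitory factor (ENSMUSG00000054263, chromosome 15, 7090614 to 7197489, plus strand), had a log2 fold change of -0.06 (SE 0.157) over all samples. In *GFP*-NSPCs it was at 74.1, 75.8, 68.75 and 73.0 CPM in numbers 1 to 4 and at 158, 112, 123 and 103 CPM in numbers 5 to 8, without overlap. This rise within *GFP*-NSPCs was 0.74 (SE 0.125) on the log2 scale. In *Dbx2*-NSPCs it was at 95.4, 83.5, 71.6 and 78.9 CPM and then at 98.9, 87.0, 109 and 109 CPM. *Dbx2*-NSPCs thus differed from *GFP*-NSPCs by 0.17 in the former set and by -0.28 in the latter.

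*Cntfr*, the alpha subunit that binds ciliary neurotrophic factor (ENSMUSG00000028444, chromosome 4, 41657498 to 41697089, minus strand), lay on opposite sides of its *GFP*-NSPC level in the 2 sets of numbers. In numbers 1 to 4 it was at 27.8, 17.3, 16.6 and 11.3 CPM in *GFP*-NSPCs and at 11.2, 7.89, 10.1 and 6.82 CPM in *Dbx2*-NSPCs, which were the lower in 4 of 4 numbers. In numbers 5 to 8 it was at 8.31, 7.05, 4.44 and 2.88 CPM in *GFP*-NSPCs and at 12.7, 6.52, 10.8 and 13.5 CPM in *Dbx2*-NSPCs, which were the higher in 3 of 4 numbers. The means went from 18.3 ± 6.90 to 9.01 ± 2.02 CPM in the former set and from 5.67 ± 2.46 to 10.9 ± 3.12 CPM in the latter (SD, n = 4), so the log2 fold change of 0.00 over all samples describes neither. The log2 fold changes within the sets, -0.94 and 0.93, lay 1.87 (SE 0.442) apart. Most of this distance lay in *GFP*-NSPCs, where *Cntfr* fell by 1.63 (SE 0.312) from numbers 1 to 4 to numbers 5 to 8. The change in *Dbx2*-NSPCs was 0.24 (SE 0.312). As *Cntfr* was chosen with these samples known, these values are a description.

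**Figure D2:**
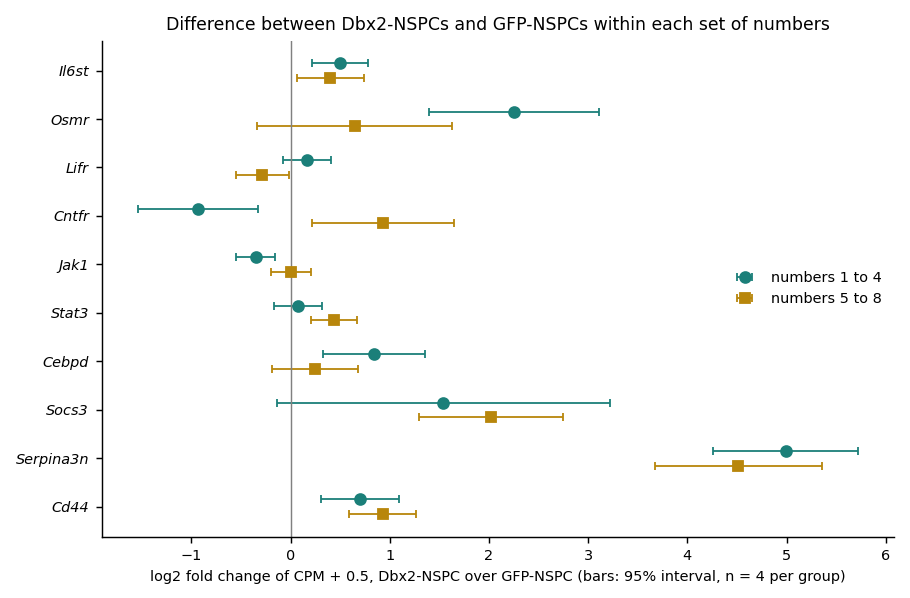
Difference between *Dbx2*-NSPCs and *GFP*-NSPCs for each of the 10 genes as the log2 fold change of CPM + 0.5, in numbers 1 to 4 (green circles) and numbers 5 to 8 (ochre squares), with 95% intervals from limma (n = 4 per group). *Serpina3n* lies at 4.99 and 4.51, *Il6st* at 0.50 and 0.40, and *Cntfr* on opposite sides of 0, at -0.94 and 0.93.

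The kinase and the transcription factor differed less. *Jak1* (ENSMUSG00000028530, chromosome 4, 101152367 to 101265282, minus strand) was at 208, 196, 230 and 199 CPM in *GFP*-NSPCs and at 160, 156, 171 and 167 CPM in *Dbx2*-NSPCs in numbers 1 to 4, without overlap. The levels in numbers 5 to 8 were 181, 180, 164 and 140 CPM in *GFP*-NSPCs and 176, 162, 172 and 155 CPM in *Dbx2*-NSPCs, with overlap. The log2 fold changes were -0.35 and 0.01. *Jak1* fell by 0.33 (SE 0.095) within *GFP*-NSPCs between the sets. The fit put this fall past the threshold, but not without *GFP*-NSPC replicate 8.

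*Stat3* (ENSMUSG00000004040, chromosome 11, 100885098 to 100939540, minus strand) was at 570, 543, 457 and 429 CPM in *GFP*-NSPCs and at 527, 578, 525 and 472 CPM in *Dbx2*-NSPCs in numbers 1 to 4, where the groups overlapped. In numbers 5 to 8 it was at 506, 636, 518 and 510 CPM in *GFP*-NSPCs and at 803, 816, 753 and 582 CPM in *Dbx2*-NSPCs, with replicate 8 of *Dbx2*-NSPCs below replicate 6 of *GFP*-NSPCs. The log2 fold changes were 0.08 and 0.44. Within *Dbx2*-NSPCs, *Stat3* rose by 0.48 (SE 0.114) from numbers 1 to 4 to numbers 5 to 8. These are levels of mRNA, and the phosphorylation that activates *Stat3* is not measured by them.

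*Socs3*, the feedback inhibitor of the pathway (ENSMUSG00000053113, chromosome 11, 117966079 to 117970047, minus strand), varied most within the groups among members with reads in every sample. It was at 14.1, 12.3, 2.61, 1.33, 2.22, 3.07, 1.71 and 4.11 CPM in *GFP*-NSPC replicates 1 to 8, and at 33.7, 34.6, 16.6, 3.23, 18.65, 15.5, 7.22 and 10.8 CPM in those of *Dbx2*-NSPCs. The *Dbx2*-NSPC sample was the higher in 8 of 8 numbers, by 1.03 to 2.82 on the log2 scale. Only in numbers 5 to 8 did the groups not overlap, since *Dbx2*-NSPC replicate 4 lay below *GFP*-NSPC replicates 1 and 2. The log2 fold change was 1.78 (SE 0.486) over all samples, 1.54 (SE 0.773) in numbers 1 to 4 and 2.02 (SE 0.338) in numbers 5 to 8.

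The samples in which *Socs3* was high were also high in the immediate early genes *Fos* and *Junb*, transcription factors that growth factors and handling of cells are known to induce within minutes. *Fos* was at 281 CPM in *GFP*-NSPC replicate 1 and 425 CPM in *Dbx2*-NSPC replicate 1, against 36.6 to 123 CPM and 71.3 to 202 CPM in the others. For correlations across the 16 samples, the mean of each group in each set of numbers was removed. The log2 level of *Socs3* then correlated with *Junb* (r = 0.843) and *Fos* (r = 0.757), and with the members *Cebpd* (r = 0.785) and *Stat3* (r = 0.646). These points share their libraries and their numbers. The part of *Fos* and *Junb* in the level of *Socs3* was not tested. *Fos* and *Junb* themselves did not pass the test between the groups over all samples (log2 fold change 1.07, limma adjusted p = 0.0757, and 0.78, adjusted p = 0.196). Both passed with the replicate number as a block (adjusted p = 5.82e-05 and 0.00457). *Fos* also passed with the number set as a covariate (adjusted p = 0.00603) and without *GFP*-NSPC replicate 1 (adjusted p = 0.00647), and *Junb* passed in neither. Within numbers 5 to 8 *Fos* passed (limma adjusted p = 1.84e-04) and *Junb* did not (adjusted p = 0.0602). Within numbers 1 to 4 neither passed (limma adjusted p = 0.175 and 0.243).

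**Figure D3:**
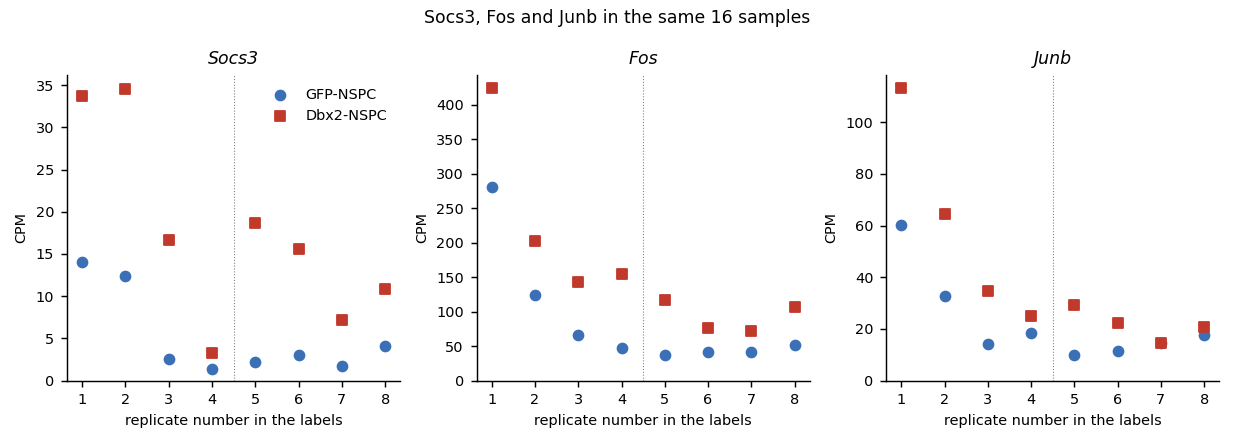
*Socs3*, *Fos* and *Junb* in CPM by the replicate number in the labels, blue circles for *GFP*-NSPCs and red squares for *Dbx2*-NSPCs, with a dotted line between numbers 4 and 5. Numbers 1 and 2 hold the highest levels of *Fos* and *Junb* in both groups and the highest of *Socs3*, at 33.7 and 34.6 CPM in *Dbx2*-NSPCs.

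*Cebpd*, a transcription factor of the acute phase response (ENSMUSG00000071637, chromosome 16, 15887286 to 15891031, plus strand), was at 21.35, 16.9, 18.6 and 13.7 CPM in *GFP*-NSPCs and at 35.3, 43.1, 32.9 and 19.7 CPM in *Dbx2*-NSPCs in numbers 1 to 4. In numbers 5 to 8 it was at 14.96, 13.8, 15.7 and 16.9 CPM in *GFP*-NSPCs and at 25.7, 19.6, 14.45 and 15.2 CPM in *Dbx2*-NSPCs, where 2 of 4 samples lay within the range of *GFP*-NSPCs. The log2 fold changes were 0.84 (SE 0.235) and 0.25 (SE 0.202). Within *Dbx2*-NSPCs the level fell by 0.77 (SE 0.222) between the sets. The fit put this fall past the threshold, but not without replicates 2, 7 or 8 of *Dbx2*-NSPCs.

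*Cd44*, the cell surface receptor for hyaluronan (ENSMUSG00000005087, chromosome 2, 102811141 to 102901665, minus strand), was at 66.9, 36.0, 41.7, 41.3, 31.6, 32.2, 24.6 and 23.85 CPM in *GFP*-NSPC replicates 1 to 8. In *Dbx2*-NSPC replicates 1 to 8 it was at 77.1, 77.1, 81.7, 60.6, 70.75, 47.2, 48.8 and 49.97 CPM. The *Dbx2*-NSPC sample was the higher in 8 of 8 numbers, and the overlap of the groups came from *GFP*-NSPC replicate 1. The log2 fold change was 0.82 (SE 0.185) over all samples, 0.70 within numbers 1 to 4 and 0.93 within numbers 5 to 8. Within *GFP*-NSPCs *Cd44* fell by 0.69 (SE 0.174) between the sets. The genes most like it were *Grina* (r = 0.974), *Ctsd* (0.961), *Pmm1* (0.959), *Lamp1* (0.954) and *Pigs* (0.951) over the 16 samples, while *Cap2* (0.940) led for *Osmr* and *Gse1* (0.886) for *Stat3*.

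**Figure D4:**
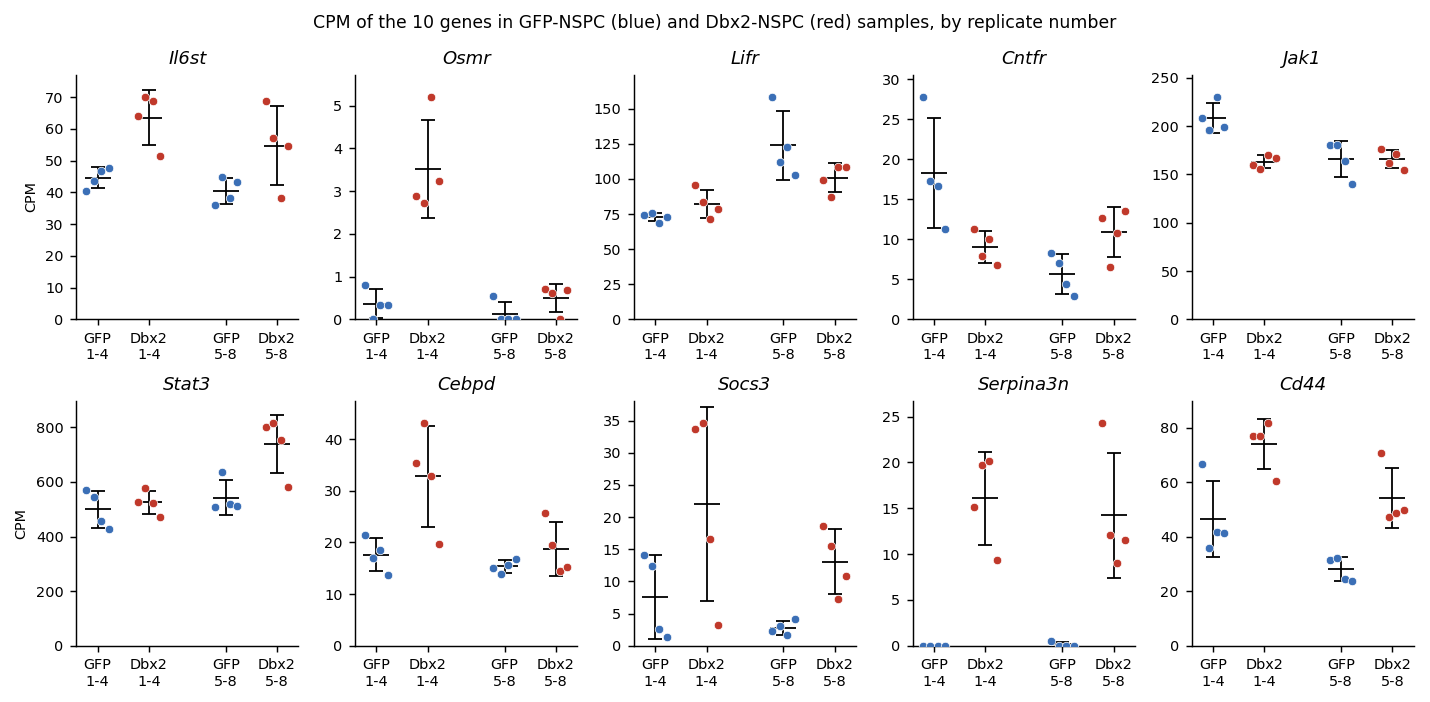
CPM of the 10 genes in each of the 16 samples, blue for *GFP*-NSPCs and red for *Dbx2*-NSPCs, in numbers 1 to 4 and 5 to 8, with the mean and SD of each group of 4 as bars and each axis starting at 0. *Serpina3n* lies at 0 to 0.55 CPM in *GFP*-NSPCs and at 9.03 to 24.3 CPM in *Dbx2*-NSPCs, and *Osmr* is above 1 CPM in *Dbx2*-NSPC samples 1 to 4 only.

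Counted together, 5 of the 10 members were higher in *Dbx2*-NSPCs past the threshold over all samples (*Il6st*, *Osmr*, *Socs3*, *Serpina3n* and *Cd44*) and 0 lower (0 also at an unadjusted p, with edgeR and with DESeq2), beside 8.03% and 7.78% of the genes tested. Without *GFP*-NSPC replicate 8 it was 4 higher, as *Osmr* lost its call, and 1 lower, *Jak1*. In numbers 1 to 4 it was 7, with *Il6st*, *Osmr*, *Cebpd*, *Serpina3n* and *Cd44* higher and *Cntfr* and *Jak1* lower, beside 15.6% of the genes tested (8.19% higher, 7.37% lower). In numbers 5 to 8 it was 4, with *Stat3*, *Socs3*, *Serpina3n* and *Cd44* higher, beside 23.2% (11.5% higher, 11.7% lower). The groups did not overlap for 5 members in numbers 1 to 4 (19.6% of the genes tested) and for 3 in numbers 5 to 8 (24.8%). The members' median log2 fold change was 0.50 over all samples, beside -0.02 over the genes tested. As the members were chosen with this comparison known, nothing is read from these counts. The count in numbers 1 to 4 was 2 without *Dbx2*-NSPC replicate 2 and 3 without *GFP*-NSPC replicate 2, *GFP*-NSPC replicate 3 or *Dbx2*-NSPC replicate 3.

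Between the sets of numbers, 4 members were past the threshold within *GFP*-NSPCs, beside 28.6% of the genes tested (15.1% higher, 13.5% lower). *Lifr* was higher in numbers 5 to 8, and *Cntfr*, *Jak1* and *Cd44* were lower. Within *Dbx2*-NSPCs 2 were past it (*Stat3* higher and *Cebpd* lower), beside 17.5% (8.76% higher, 8.74% lower). *Osmr* was not counted there, for the reason given above. These contrasts compare samples of the same transgene, but the samples are those of the comparison on which the members were chosen. Nothing is therefore read from these counts either.

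Among genes of the pathway outside the 10, the ligands were near 0. Of 12 ligands or their subunits, 5 were at 0 in all samples, 3 could be tested and 1 was higher in *Dbx2*-NSPCs, *Clcf1*, the cytokine that signals through *Cntfr* (0.434 ± 0.822 to 1.76 ± 0.845 CPM, SD, n = 8; log2 fold change 1.47, limma adjusted p = 0.0131). Its highest *GFP*-NSPC sample was replicate 1, at 2.42 CPM. With edgeR on the whole reads its adjusted p was 0.055. *Il6* was at 0 to 0.33 CPM, and *Osm* was among the genes at 0.

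Of 8 further receptors, 2 could be tested and *Il6ra*, the IL6 binding subunit that pairs with *Il6st*, rose from 3.09 ± 2.33 to 9.67 ± 3.17 CPM (SD, n = 8; log2 fold change 1.66, SE 0.316, limma adjusted p = 0.00116). *GFP*-NSPC replicates 1 to 8 were at 8.46, 2.82, 2.61, 0.67, 1.66, 2.15, 3.07 and 3.29 CPM, and those of *Dbx2*-NSPCs at 10.6, 6.98, 6.51, 9.33, 15.1, 9.32, 13.1 and 6.42 CPM. The groups overlapped through *GFP*-NSPC replicate 1. *Il11ra1*, the binding subunit for interleukin 11, did not pass (log2 fold change 0.20, limma adjusted p = 0.511).

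Of 9 other Janus kinases and STAT factors, 6 could be tested and 1 passed, *Jak3*, at 0.637 ± 0.488 and 2.51 ± 1.79 CPM (SD, n = 8; log2 fold change 1.25, limma adjusted p = 0.041). This call was lost without any 1 of 11 of the 16 samples (adjusted p up to 0.0854).

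Of 15 inhibitors of the pathway, 13 could be tested, 1 rose and 3 fell in *Dbx2*-NSPCs. The suppressor of cytokine signalling *Socs5* rose from 30.1 ± 5.59 to 44.0 ± 5.97 CPM (SD, n = 8; log2 fold change 0.55, limma adjusted p = 0.0033). Its relatives *Socs2* (10.98 ± 4.23 to 4.30 ± 1.36 CPM; -1.22, adjusted p = 0.00324) and *Socs6* (54.5 ± 9.08 to 40.6 ± 6.49 CPM; -0.42, adjusted p = 0.0234) fell. So did *Pias4*, a SUMO ligase of the protein inhibitors of activated STAT (40.6 ± 6.82 to 20.2 ± 1.86 CPM; -0.98, adjusted p = 6.79e-06).

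Of 15 other genes known to be induced through *Stat3*, 13 could be tested and 2 rose. These were *Fosl2*, an AP-1 transcription factor (8.34 ± 3.30 to 17.0 ± 3.09 CPM; log2 fold change 1.04, limma adjusted p = 0.00153), and *Bcl2l1*, an inhibitor of apoptosis (44.2 ± 11.3 to 82.6 ± 21.7 CPM; 0.89, adjusted p = 8.88e-04). *Myc*, *Pim1*, *Mcl1* and *Vegfa* were among the 11 that did not pass. Over the 5 pathway lists, 9 of 37 genes tested passed (24.3%), 6 higher and 3 lower, beside 15.8% of all genes tested (8.03% higher, 7.78% lower), with a median log2 fold change of 0.06 beside -0.02 over the genes tested.

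In the Hallmark list of IL6, JAK and STAT3 signalling as the study's supplement gives it, which holds only genes detected in these samples, 6 of 45 genes outside the members rose and 0 fell with limma (13.3%, beside 15.8% of all genes tested, 8.03% higher and 7.78% lower). At an unadjusted p under 0.05 it was 10 and 2, with edgeR 7 and 1, and with DESeq2 8 and 1. Among those that averaged 5 CPM or more in a group, the largest increases were those of *Fas*, a death receptor (log2 fold change 1.44, limma adjusted p = 0.00266), *A2m*, a protease inhibitor of the acute phase response (1.38, adjusted p = 0.0188), and *Hmox1*, which breaks down heme (1.11, adjusted p = 2.6e-04). *Il1r1*, the receptor of interleukin 1, had a larger log2 fold change at a lower level (0.496 ± 0.781 to 2.75 ± 2.23 CPM, SD, n = 8; 1.62, adjusted p = 0.034), a call lost without any 1 of 10 samples (adjusted p up to 0.0687). Counted by set with limma, 7 of the 45 rose and 2 fell in numbers 1 to 4, beside 8.19% and 7.37% of all genes tested. In numbers 5 to 8, 12 rose and 0 fell, beside 11.5% and 11.7%. The difference between the sets passed for 6 of the 45, beside 9.44% of all genes tested.

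Over the 3 lists of reactive astrocyte genes, 5 of 20 genes tested outside the members passed (25.0%), 4 higher and 1 lower, beside 15.8% of all genes tested. Of 10 pan-reactive genes outside the members 5 could be tested and 2 rose. *Gfap*, the intermediate filament of astrocytes, was at 20.95, 13.8, 3.91, 2.0, 2.77, 0.92, 1.02 and 0.82 CPM in *GFP*-NSPC replicates 1 to 8 and at 66.8, 64.65, 70.7, 59.2, 26.75, 18.0, 18.5 and 15.9 CPM in those of *Dbx2*-NSPCs (log2 fold change 3.31, limma adjusted p = 3.54e-04). Within each set of numbers the groups did not overlap. *Cp*, the copper carrier ceruloplasmin, rose from 105 ± 34.6 to 175 ± 41.6 CPM (SD, n = 8; 0.79, adjusted p = 0.0155). It passed in numbers 1 to 4 (1.33, adjusted p = 0.00531) and not in numbers 5 to 8 (0.24, adjusted p = 0.258), and these values differed (-1.09, limma adjusted p = 0.0219), as for 9.44% of the genes tested. Of 11 genes of the A1 list, named for glia activated by inflammation, 7 could be tested and 0 passed with limma, edgeR or DESeq2 (1 at an unadjusted limma p under 0.05, higher). One of them, the histocompatibility gene *H2-D1*, was higher in numbers 5 to 8 (1.12, adjusted p = 0.00334) and not past the threshold in numbers 1 to 4 (-0.05, adjusted p = 0.915), and these values differed (1.17, limma adjusted p = 0.0187). Of 12 genes of the A2 list, named for glia after ischemia, 8 could be tested, 2 rose and 1 fell. *Cd109*, a surface protein, rose from 8.03 ± 5.82 to 42.6 ± 8.45 CPM (2.59, adjusted p = 1.66e-05) and by more in numbers 5 to 8 than in numbers 1 to 4 (difference 1.72, limma adjusted p = 0.00357), *Clcf1* is given above, and *B3gnt5*, a glycosyltransferase, fell by 0.90 on the log2 scale (adjusted p = 0.0398, up to 0.0794 without any 1 of 9 samples).

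Markers of the astrocyte lineage did not move together beside these genes. Of 8 markers, *Gfap* and *Aldoc* rose (*Aldoc*: log2 fold change 1.42, limma adjusted p = 5.11e-06), *Gja1* (-4.13, adjusted p = 3.42e-04) and *Aldh1l1* (-1.20, adjusted p = 1.98e-04) fell, and *Gjb6* was at 0 in all samples. The difference between *Dbx2*-NSPCs and *GFP*-NSPCs was not the same in both sets of numbers for *Aldoc* and *Gja1*. Numbers 5 to 8 minus numbers 1 to 4 gave 1.19 for *Aldoc* (limma adjusted p = 2.67e-06) and -4.47 for *Gja1* (limma adjusted p = 1.63e-07). The summed level of the 8 astrocyte markers was 458 to 1204 CPM in *GFP*-NSPCs and 793 to 1074 CPM in *Dbx2*-NSPCs. Of the 10 neural stem and progenitor markers 5 fell and 0 rose, with limma, edgeR and DESeq2 alike and 0 higher also at an unadjusted p under 0.05, and among the 5 were *Pax6* (-0.74, adjusted p = 2.5e-04), *Fabp7* (-0.72, adjusted p = 0.0149) and *Slc1a3* (-1.03, adjusted p = 0.0259, up to 0.0543 without any 1 of 7 samples). Of the markers of other cell types, the neuronal *Map2* fell (1053 ± 209 to 751 ± 70.2 CPM, SD, n = 8; -0.47, adjusted p = 0.00557), and the endothelial *Flt1* (1.18 ± 0.874 to 6.84 ± 2.66 CPM; 2.29, adjusted p = 3.47e-04) and the ependymal *Ccdc153* (1.43 ± 1.16 to 5.41 ± 2.32 CPM; 1.75, adjusted p = 0.0102) rose, each the only marker of its list to pass over all samples. The neuroblast and neuron markers differed by set. Of 7 tested, 5 fell and 0 rose in numbers 1 to 4, beside 7.37% and 8.19% of all genes tested. In numbers 5 to 8, 1 fell and 2 rose, beside 11.7% and 11.5%. The difference between the sets passed for 2 of the 7, beside 9.44% of all genes tested. The part of such shifts in the members' levels was not tested.

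**Figure D5:**
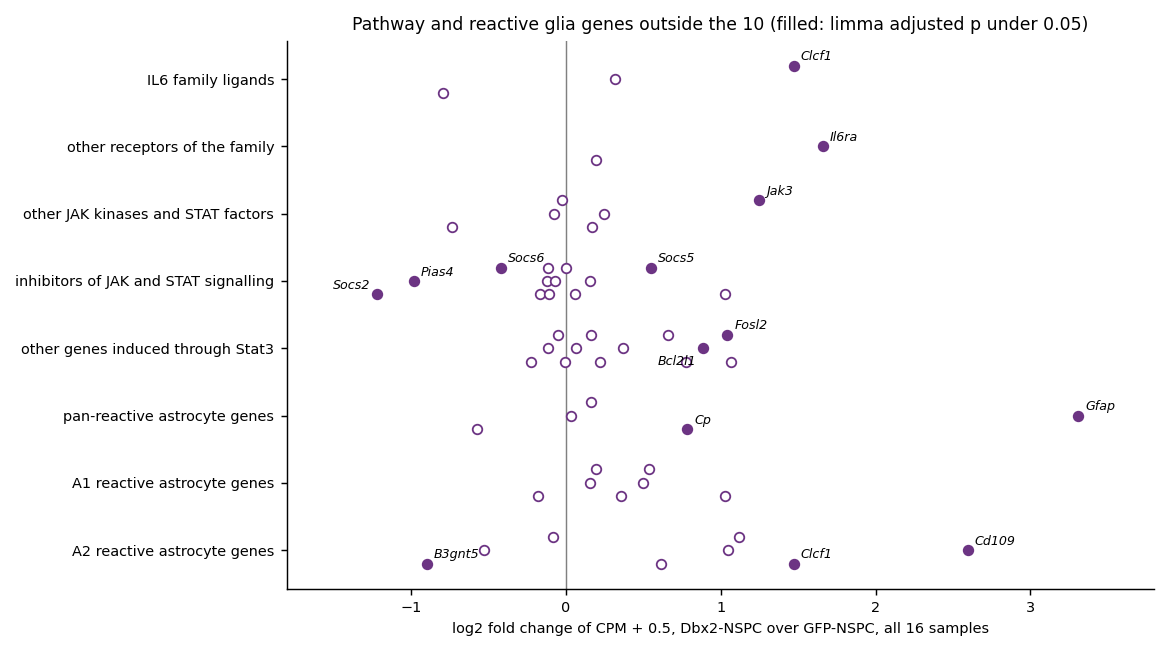
Log2 fold change of CPM + 0.5 between *Dbx2*-NSPCs and *GFP*-NSPCs over all 16 samples for the tested genes of 8 lists outside the 10 members, 1 point per gene, filled and named where the limma adjusted p was under 0.05. *Gfap* (3.31) and *Cd109* (2.59) lie farthest to the right and *Socs2* (-1.22) farthest to the left among filled points, and no gene of the A1 list is filled.

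Other genes overlap *Jak1*, *Stat3*, *Cebpd* and *Cd44* in the annotation, and the strand used in counting is not given in the sources used here. *Jak1* overlaps 3 genes, among them *Gm12785* on the same strand, whose reads strand alone could not separate. Of the opposite strand genes, *Raver2* at *Jak1* reached 17.3 CPM, *Stat5a* at *Stat3* 2.25 CPM and *Spidr* at *Cebpd* 18.2 CPM. *Spidr* had means of 9.47 and 12.9 CPM in *GFP*-NSPCs and *Dbx2*-NSPCs, so reads of *Cebpd* and *Spidr* may not be fully told apart.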

How the data were processed

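RNA of 16 NSPC cultures was sequenced by the authors with the QuantSeq 3′ kit from 100 ng of total RNA in single-end reads of 101 bp. Per the methods and the processing notes, reads were checked with FastQC 0.11.8, trimmed with bbduk, aligned with STAR 2.5.0a to GRCm38 and normalized with edgeR 3.36; the counting tool and strand are not given in the sources used here. The authors deposited CPM for 30386 genes and 16 samples. Between 99.9925% and 100% of the values of a sample were whole reads within 0.1 of a read. Genes that exceeded 1 CPM in 4 samples or more were tested on log2(CPM + 0.5), which understates the change of low genes, with limma 3.58.1 in R 4.3.3 (eBayes with trend, 2-sided) and Benjamini-Hochberg adjustment over all 12533 genes, with 0.05 as the threshold. Differences between the sets of numbers came from a fit of 4 groups, and the cell line, a covariate in the methods, is not in the labels. The methods describe independent experiments, but the labels do not tie a sample to its line or experiment, so part of the spread between samples may be that between lines. Alternatives were pseudocounts of 0.1 and 2, other filters and scalings, count tests on the recovered whole reads (edgeR 4.0.16, DESeq2 1.42.0), a replicate block, the number set as a covariate and leaving out each sample.

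The labels' replicate numbers were checked for pairing. Deviations of same-numbered samples from their group means correlated over genes at 0.152 to 0.303 in the 8 pairs. Samples of other numbers in the same set correlated at 0.199 on average. With the means of the sets also removed, same-numbered samples correlated at -0.00741 to 0.119. The *GFP*-NSPC sample then correlated best with its own number in 4 of the 8 pairs. Pairing beyond the set of numbers was thus weak at most. The block fit, which treats same-numbered samples as paired, is given as an alternative only.

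The members and the gene lists were chosen with earlier results of these data known. Named were the members, *Dbx2*, and of each list up to 3 increases and 3 decreases past the threshold that averaged 5 CPM or more in a group; *Clcf1*, *Jak3*, *Il1r1*, *H2-D1*, *Il6*, *Osm*, *Fos*, *Junb*, *Il11ra1*, *Serpina3k* and genes that did not pass were named after their values were seen. Positions came from GENCODE M21 and start windows from the RefSeq table. The fits between *Dbx2*-NSPCs and *GFP*-NSPCs, and of the difference between the sets in these, were run on simulated data with limma, edgeR and DESeq2. The contrasts of the sets within a group, the replicate block and the number set as a covariate were not.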

Additional observations from a re-analysis of the deposited data

Results flagged for a closer look

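The value of *Serpina3n* in *GFP*-NSPC replicate 5, 0.55 CPM, stood apart from the other 7 *GFP*-NSPC samples, which were at 0; it is a single read. The value of *Cd44* in *GFP*-NSPC replicate 1, 66.88 CPM, stood apart from the next highest, 41.71 CPM, by 0.585 of the range of the group. In groups of 8 values from a normal distribution, chance alone flags about 1 in 20. That rate does not apply to *Serpina3n* in *GFP*-NSPCs, where a single read beside 7 values of 0 is always flagged. Here 2 of 20 groups tested were flagged.

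The difference between *Dbx2*-NSPCs and *GFP*-NSPCs was compared between the sets of numbers by the limma interaction, with n = 4 per group and set. The genes compared were the list genes named by the rule for increases and decreases, with *Clcf1*, *Jak3*, *Il1r1* and *H2-D1*. Among these, outside the members, the difference was not the same in both sets for 5. *Dbx2*, not part of that count, also differed (1.45, limma adjusted p = 1.04e-04). On the log2 scale, numbers 5 to 8 minus numbers 1 to 4 gave 1.72 for *Cd109*, 1.19 for *Aldoc*, 1.17 for *H2-D1*, -1.09 for *Cp* and -4.47 for *Gja1* (adjusted p = 0.00357, 2.67e-06, 0.0187, 0.0219 and 1.63e-07). The call of *Cp* was lost without any 1 of 5 samples (*GFP*-NSPC replicates 3 and 6, *Dbx2*-NSPC replicates 3, 7 and 8; adjusted p up to 0.0584), without a filter (0.0531) and with DESeq2 (0.0904), and that of *H2-D1* without *Dbx2*-NSPC replicate 3 (0.0518).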

How the results depend on the processing

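The cells' line is not in the labels, and with 1 read worth 0.303 to 0.554 CPM the levels of *Osmr*, *Clcf1* and *Jak3* rest on few reads. Over all samples the number set as a covariate gave 3034 genes called, beside 1982, and a mean of at least 10 CPM as filter left 3 members and 5 pathway genes called, beside 5 and 9, because lower genes were no longer tested. In numbers 1 to 4, testing without a filter gave 1299 genes and 4 members called, beside 1950 and 7.

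The fitted log2 fold change of *Serpina3n* depends on the pseudocount, at 6.83 with 0.1 and 2.99 with 2, as does that of *Osmr*, at 2.40 with 0.1, where it lost its call. *Stat3* over all samples was called only with the replicate block or the number set as a covariate, and *Cebpd* with these, edgeR or DESeq2. *Cntfr* in numbers 5 to 8 was called with a pseudocount of 2, the filter of 10 CPM, edgeR or DESeq2, and *Il6st* there with edgeR or DESeq2. Without a filter the calls of *Cntfr*, *Cebpd* and *Cd44* in numbers 1 to 4 and of *Stat3* in numbers 5 to 8 were lost. Within *Dbx2*-NSPCs *Cd44* was called lower with edgeR or DESeq2. No direction that was called turned under any setting. Calls of members between *Dbx2*-NSPCs and *GFP*-NSPCs, and between the sets within a group, describe the fits here and below. They are no test of the members.

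Without each sample in turn, 1684 to 2210 genes, 4 to 6 members and 8 to 10 pathway genes were called over all samples. It was 1286 to 2209 genes and 2 to 7 members in numbers 1 to 4, where the lowest count of genes came without *GFP*-NSPC replicate 3, and 2349 to 2754 genes and 4 to 5 members in numbers 5 to 8. The difference between the sets gave 1031 to 1307 genes, the sets within *GFP*-NSPCs 3041 to 3944 genes and 3 to 4 members, and within *Dbx2*-NSPCs 1673 to 2349 genes and 1 to 3 members (*Osmr* not counted). *Osmr* over all samples lost its call without any 1 of 8 samples, and in numbers 1 to 4 *Cntfr*, *Cebpd* and *Cd44* each without any 1 of 6 of the 8, *Il6st* of 3 and *Jak1* of 2.

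With the replicate block, 2723 genes, 7 members (with *Stat3* and *Cebpd*) and 13 pathway genes were called over all samples, 1980 genes and 8 members (with *Socs3*) in numbers 1 to 4, 2983 genes and 4 members in numbers 5 to 8, and 1308 genes in the difference between the sets. It changed no other call of a member. The sets within a group hold each number once, so no block could be fitted there.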
